A study of Rattus norvegicus with 12 samples.

Results

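In oligodendrocyte precursor cells (OPCs), 10 genes of the oxygen-sensing pathway were followed, namely the hypoxia-inducible factor (HIF) alpha subunits Hif1a, Epas1 and Hif3a, the beta subunits Arnt and Arnt2, the prolyl hydroxylases Egln1, Egln2 and Egln3, the asparaginyl hydroxylase Hif1an, and Vhl. They were chosen by gene symbol, and each of the 10 symbols was found among the 30562 genes of the count table. Where a symbol occurred in more than 1 row, the row with the highest total was used. The study cultured OPCs from the cerebral cortex of wild-type Sprague-Dawley rat pups and sequenced their RNA in bulk. Mild-hypo-OPCs (6 libraries) were kept at an oxygen fraction (FiO2) of 5%. The time was 6 hours according to the labels and 6 days according to the methods. Standard OPCs (6 libraries) were the controls, and their oxygen fraction is not given in the sources used here. The labels do not say that the 6 libraries of a group came from separate cultures, and a legend of the study gives fewer biological replicates per group than there are libraries. The p-values and SDs over 6 libraries therefore measure only the spread between libraries, which may be technical, and are too small if libraries share a culture.

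In well-oxygenated cells the prolyl hydroxylases use molecular oxygen to hydroxylate HIF alpha subunits, the Vhl protein binds the hydroxylated subunit, and its ubiquitin ligase marks it for the proteasome. When oxygen is low the alpha subunit persists, pairs with a beta subunit and activates genes that hold the hypoxia response element. The alpha subunits are therefore controlled mainly as proteins, which RNA-seq does not measure, while Egln1 and Egln3 are known HIF target genes in many cell types.

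Total counts were 4111669 to 9022324 in mild-hypo-OPC libraries and 1356079 to 2797513 in standard OPC libraries, so depth and condition cannot be told apart. All 8 OPC markers (Pdgfra, Cspg4, Olig1, Olig2, Sox10, Nkx2-2, Ptprz1 and Gpr17) passed the filter on low values, and their summed CPM (counts divided by the TMM-scaled library total, as for every CPM given here unless stated) was 3858 to 4439 in mild-hypo-OPCs and, in standard OPCs, 3199 to 3936. Among other cells, summed astrocyte markers (7 genes) were at 804.2 to 934.7 CPM and 740.1 to 838.9 CPM in the 2 groups, and microglial markers (7 genes) at 37.6 to 52.75 CPM and 20.06 to 41.31 CPM. Neuronal markers (5 genes, mainly Tubb3) were at 125.5 to 143.7 CPM and 70.55 to 109.7 CPM, without overlap. Of the endothelial markers, 5 of 6 were in the table, Cdh5 and Tek had no count in any library, and the sum stayed at or below 1.145 CPM. Mural and mesenchymal markers (7 genes, Rgs5 and Lum at 0) summed to at most 2.979 CPM. The sums hide shifts of single markers. Called higher in mild-hypo-OPCs (edgeR, 7.00% of all genes tested) were 2 of 8 tested OPC markers (Gpr17 and Nkx2-2) and 2 of 6 astrocyte markers (Aqp4 and Slc1a3). So were 1 of 3 microglial markers (Csf1r) and 1 of 3 neuronal markers (Tubb3). The microglial marker Tyrobp was called lower (17.0% of all genes tested). The part of these marker levels in the values below was not tested, and in bulk RNA fewer cells of a type and less RNA per cell cannot be told apart.

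The promoters of 3 members are shown because Hif1a and Egln1 hold the core of the hypoxia response element and Egln3, a known HIF target, does not hold it within the same window. Sequences are from RefSeq (build GRCr8), in which all 10 members were matched, and the window ran from 250 bases before the start of the gene to 50 bases after it. The letters ACGTG and GCGTG were searched on both strands, and capitals mark the matches. Positions count from the start of the gene.
Egln1, chr19:69804672-69804741, minus strand, 60 bases before the start to 10 after it: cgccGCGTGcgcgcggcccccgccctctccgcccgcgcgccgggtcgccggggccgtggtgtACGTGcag
Hif1a, chr6:98359648-98359747, plus strand, 250 to 151 bases before the start: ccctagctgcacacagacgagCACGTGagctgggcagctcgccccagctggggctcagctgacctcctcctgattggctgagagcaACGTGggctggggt
Egln3, chr6:77411016-77411075, minus strand, the last 60 bases before the start, no match: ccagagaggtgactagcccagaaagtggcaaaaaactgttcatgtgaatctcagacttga
In Egln1, GCGTG began at position -56 and ACGTG at position 3. In Hif1a, matches to ACGTG on the opposite strand at -229 and on the same strand at -228 overlap in the palindrome CACGTG, and another began at -164. At least 1 of these motifs was found in the windows of 4 of the 10 members (Hif1a, Hif3a, Arnt and Egln1), and in 41.6% of the 33469 promoters in the RefSeq set. A match in these letters is a description and no evidence of binding, and a window without one says nothing about the factor.

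No member was called higher or lower in mild-hypo-OPCs. Of the 10 genes, 9 passed the filter on low values (CPM above 10, before TMM scaling, in at least 1 library), and 0 of these 9 had an adjusted p under 0.05 in the edgeR quasi-likelihood test, against 7.00% of the 8938 genes tested that were called higher and 17.0% that were called lower. At an unadjusted p under 0.05 stood 2 of the 9, Hif1a and Egln2, against 36.3% of all genes tested. The CPM ranges of the 2 groups overlapped for each of the 9, whereas 2.82% of all genes tested lay wholly above and 5.57% wholly below the standard OPC libraries. The fold changes of the 9 ran from -0.27 to 0.36 on the log2 scale (mild-hypo-OPC relative to standard OPC) with a median of 0.08, and the median of all genes was 0.00.

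**Figure D1:**
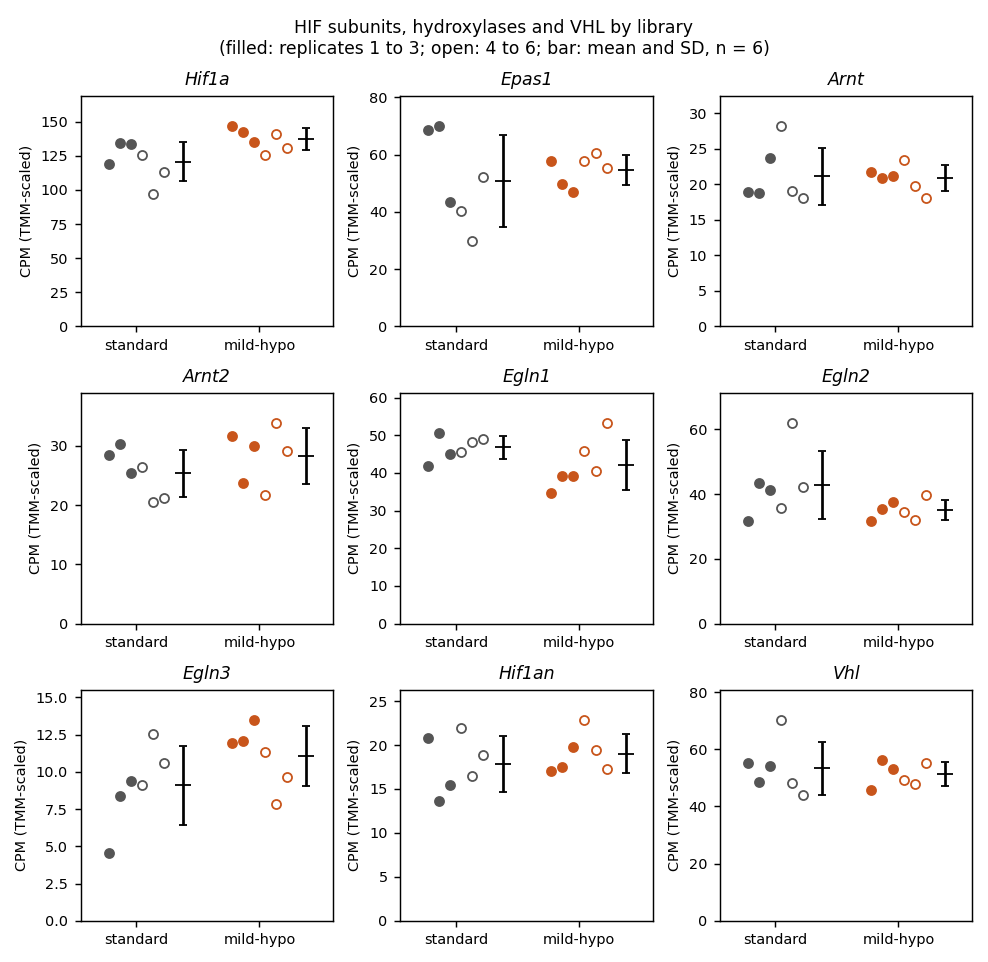
Level of the 9 tested genes in every library (vertical axis, CPM scaled by TMM factors, starting at 0), 6 standard OPC and 6 mild-hypo-OPC libraries per gene, filled for replicates 1 to 3 and open for replicates 4 to 6, with bars at the group mean ± SD. The groups overlap for all 9 genes, and the standard OPC libraries of Epas1 run from 29.67 to 70.07 CPM, beyond the mild-hypo-OPC libraries on both sides.

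Among the alpha subunits, Hif1a (ENSRNOG00000008292) encodes the broadly expressed HIF-1 alpha. Its lowest, median and highest levels were 125.7, 138.2 and 147.0 CPM in mild-hypo-OPCs, whereas they were 96.93, 122.5 and 134.4 CPM in standard OPCs. The groups overlapped, although 4 of the 6 mild-hypo-OPC libraries lay above the highest standard OPC library and all 6 lay above the standard OPC mean. The log2 fold change was 0.19 (standard error 0.08, 95% interval 0.01 to 0.36, unadjusted p = 0.0367, adjusted p = 0.11 from edgeR). The call of Hif1a depended on the tool and the scaling. It was called higher with DESeq2 (0.20, adjusted p = 0.0431), with upper-quartile scaling in edgeR (0.26, adjusted p = 0.0341) and with library size only in edgeR (0.63, adjusted p = 1.55e-05). DESeq2 called 8.89% of all genes higher, upper-quartile scaling 12.7% and library size only 61.7%. The median of all genes was 0.01 with DESeq2, 0.06 with upper-quartile scaling and 0.43 with library size only. Relative to that median, Hif1a stood at 0.19 with upper-quartile scaling and at 0.20 with library size only. Leaving out 1 library at a time gave 0.13 (without standard OPC replicate 5) to 0.24 (without mild-hypo-OPC replicate 4).

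Epas1 (ENSRNOG00000021318) encodes HIF-2 alpha, whose targets overlap in part with those of HIF-1 alpha. Its levels were 46.75, 56.5 and 60.69 CPM (lowest, median, highest) in mild-hypo-OPCs and 29.67, 47.82 and 70.07 CPM in standard OPCs, so the standard OPC range enclosed that of mild-hypo-OPCs. The log2 fold change was 0.08 (standard error 0.15, 95% interval -0.24 to 0.39, adjusted p = 0.749 from edgeR). Standard OPC libraries varied by a coefficient of variation of 31.8%, whereas counting error alone would give 11.9%, and mild-hypo-OPC libraries by 9.83%, against 5.51% from counting. In replicates 1 to 6 of standard OPCs the levels were 68.46, 70.07, 43.5, 40.12, 29.67 and 52.15 CPM, and the 2 highest lay above every mild-hypo-OPC library.

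The fold change of Epas1 was negative, without a call, in replicates numbered 1 to 3 and positive in those numbered 4 to 6. In the latter, standard OPC totals were also lower (1356079 to 1664627 against 2240615 to 2797513), and the labels do not say whether these numbers mark a batch. In replicates 1 to 3, mild-hypo-OPC libraries had Epas1 at 51.35 ± 5.68 CPM and standard OPC libraries at 60.68 ± 14.89 CPM (SD, n = 3 each), for a log2 fold change of -0.23 (adjusted p = 0.446 from edgeR). In replicates 4 to 6 it was at 57.94 ± 2.69 and 40.65 ± 11.25 CPM (SD, n = 3 each), a log2 fold change of 0.53, which was called (adjusted p = 0.0221 from edgeR, where 6.48% of genes were called higher). The difference between these fold changes was 0.77 (edgeR interaction term, unadjusted p = 0.00478, adjusted p = 0.309) and did not pass. The interaction term was chosen after the data were seen, so its unadjusted p is no independent support. With this term 0 of 8938 genes passed the threshold and 875 had an unadjusted p under 0.05.

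Hif3a (ENSRNOG00000017198) encodes HIF-3 alpha, whose splice forms include inhibitors of the other alpha subunits. It had a count of 0 in all 12 libraries, which at 3 counts allows up to 0.333 to 0.73 CPM, before TMM scaling, in mild-hypo-OPC libraries and 1.07 to 2.21 CPM in standard OPC libraries. The gene was not tested. These limits hold for each library alone, in which a lower level could be missed, and a limit over all 12 libraries together was not computed.

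The beta subunits pair with the alpha subunits and are not themselves controlled by oxygen. Arnt (ENSRNOG00000031174) had 18.01, 21.04 and 23.45 CPM (lowest, median, highest) in mild-hypo-OPCs and 18.14, 19.02 and 28.26 CPM in standard OPCs. The ranges overlapped almost wholly, with a log2 fold change of 0.01 (standard error 0.12, 95% interval -0.25 to 0.26, adjusted p = 0.973 from edgeR). Arnt2 (ENSRNOG00000013017), the paralog that is prominent in neural tissue, had 21.63, 29.53 and 33.86 CPM in mild-hypo-OPCs and 20.44, 25.89 and 30.33 CPM in standard OPCs. These ranges overlapped too, and its log2 fold change was 0.15 (standard error 0.13, 95% interval -0.13 to 0.43, adjusted p = 0.435 from edgeR), which ran from 0.10 without standard OPC replicate 5 to 0.24 without mild-hypo-OPC replicate 4. A second row with the symbol Arnt2 held 81 counts in all against 1373 in the row used, and was left out.

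The prolyl hydroxylases mark the alpha subunits for Vhl. Egln1 (ENSRNOG00000063609), the main one in many cell types, had 34.62, 39.86 and 53.31 CPM (lowest, median, highest) in mild-hypo-OPCs and 41.98, 46.86 and 50.72 CPM in standard OPCs. Of the mild-hypo-OPC libraries, 4 lay below the lowest standard OPC library and 1 lay above the highest. The log2 fold change was -0.15 (standard error 0.11, 95% interval -0.37 to 0.08, adjusted p = 0.343 from edgeR). It was -0.06 without mild-hypo-OPC replicate 1, the library with the lowest level, and -0.20 without mild-hypo-OPC replicate 6, the one with the highest.

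Egln2 (ENSRNOG00000020947) encodes another prolyl hydroxylase and had 31.83, 34.98 and 39.85 CPM (lowest, median, highest) in mild-hypo-OPCs and 31.77, 41.81 and 61.98 CPM in standard OPCs. The lowest standard OPC library lay just below every mild-hypo-OPC library, and all 6 mild-hypo-OPC libraries lay below the standard OPC mean, 42.72 ± 10.44 CPM (SD, n = 6). The log2 fold change was -0.27 (standard error 0.13, 95% interval -0.53 to -0.0034, unadjusted p = 0.0474, adjusted p = 0.133 from edgeR). Without standard OPC replicate 1, the library with the lowest level, Egln2 was called lower (-0.36, adjusted p = 0.0325 from edgeR), where 18.7% of genes were called lower. Without standard OPC replicate 5, the library with the highest level, the log2 fold change was -0.14 (adjusted p = 0.411 from edgeR). In standard OPCs its coefficient of variation was 24.4%, against 12.3% from counting.

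Egln3 (ENSRNOG00000005053) encodes the hydroxylase whose RNA is known to respond to hypoxia in many cells. Few reads fell on it, with counts of 48 to 116 under mild hypoxia and of 10 to 19 in the standard libraries. The levels were 7.85, 11.64 and 13.47 CPM (lowest, median, highest) and 4.54, 9.24 and 12.53 CPM. The ranges overlapped, and 5 of the 6 mild-hypo-OPC libraries lay above the standard OPC mean. With a log2 fold change of 0.36 (standard error 0.21, 95% interval -0.08 to 0.80, adjusted p = 0.231 from edgeR), Egln3 had the widest interval of the 9. Its unscaled CPM was above 10 in 5 mild-hypo-OPC libraries and 1 standard OPC library, so it passed the filter mainly through mild-hypo-OPCs. The log2 fold change was 0.83 (edgeR adjusted p = 0.0889) over replicates 1 to 3 but -0.18 (edgeR adjusted p = 0.72) over replicates 4 to 6. The difference was -1.0 (edgeR interaction term, chosen after the data were seen, unadjusted p = 0.0169, adjusted p = 0.416). Leaving out standard OPC replicate 1 gave 0.16 and leaving out standard OPC replicate 5 gave 0.48.

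Hif1an (ENSRNOG00000014234) encodes factor inhibiting HIF, which hydroxylates an asparagine of the alpha subunit and so blocks its binding to the coactivators p300 and CBP. Its levels were 17.0, 18.5 and 22.84 CPM (lowest, median, highest) in mild-hypo-OPCs and 13.6, 17.69 and 21.88 CPM in standard OPCs. The groups overlapped, and the log2 fold change was 0.10 (standard error 0.13, 95% interval -0.18 to 0.38, adjusted p = 0.651 from edgeR), with 0.02 without standard OPC replicate 2 and 0.17 without standard OPC replicate 1. Vhl (ENSRNOG00000010258), the substrate receptor of the ligase, had 45.85, 51.1 and 56.25 CPM in mild-hypo-OPCs and 43.83, 51.3 and 70.21 CPM in standard OPCs. Its medians differed by less than the spread between libraries, and the log2 fold change was -0.05 (standard error 0.10, 95% interval -0.26 to 0.16, adjusted p = 0.775 from edgeR).

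**Figure D2:**
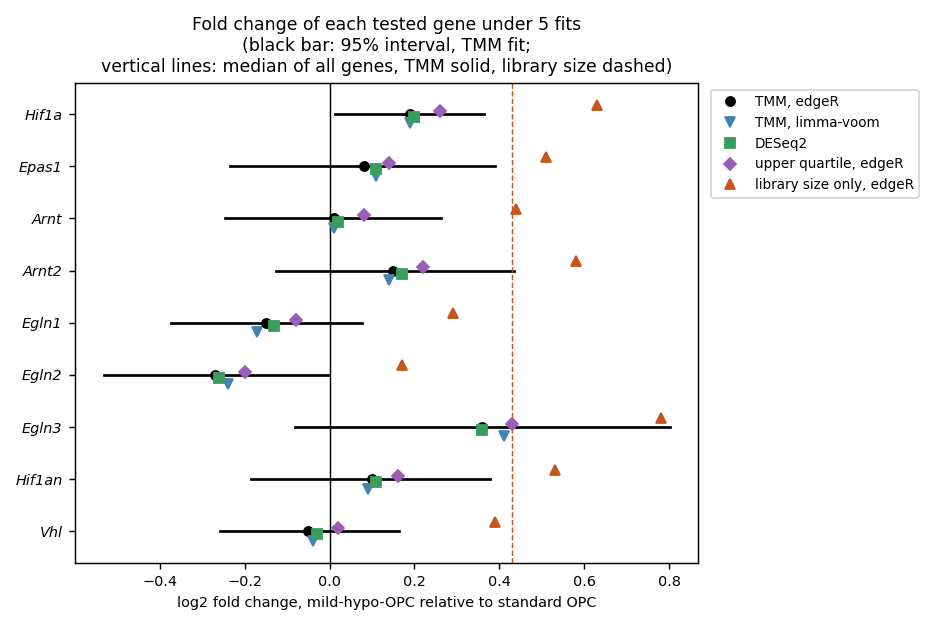
Log2 fold change (mild-hypo-OPC relative to standard OPC) of the 9 genes tested, by edgeR with TMM factors (circles with 95% interval), limma-voom, DESeq2, edgeR with upper-quartile scaling and edgeR with library size only. Vertical lines mark the median of all genes, at 0.00 with TMM factors and at 0.43 with library size only, the scaling under which all 9 points lie farthest to the right.

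With library size only, 8 of the 9 members were called higher, against 61.7% of all genes, and the exception was Egln2 (0.17, adjusted p = 0.277 from edgeR). Under each of TMM factors with edgeR, limma-voom, DESeq2, upper-quartile scaling and library size only, 6 of the 9 lay above the median of all genes. These fits use the same libraries, and a change of scaling moves the genes and their median together. The equal counts are therefore no separate support. When the libraries themselves were varied, the number ran from 4 of the 9 to 7 of the 9. It was 4 in replicates 4 to 6 only and without standard OPC replicate 5, and 7 without standard OPC replicate 4. After thinning every library to 1356079 counts, the smallest total, 0 members were called in edgeR.

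The ratio of 2 members within a library does not depend on the scaling, and 5 ratios were compared by a two-sided exact permutation test over the 12 libraries, with p-values adjusted over the 5 by Benjamini-Hochberg. The ratios are of counts, which also reflect transcript length, so only their difference between groups is read. Hif1a to Egln1, the alpha subunit against its main hydroxylase, gave a log2 ratio of 1.29, 1.79 and 2.08 (lowest, median, highest) in mild-hypo-OPCs and 1.0, 1.43 and 1.56 in standard OPCs. Of the mild-hypo-OPC libraries, 4 lay above every standard OPC library. The difference was 0.36 (exact permutation p = 0.0325, adjusted 0.162), which did not pass after adjustment. The other 4 ratios differed by 0.21 (Hif1a to Arnt, exact permutation p = 0.11), -0.17 (Arnt to Arnt2, 0.396), 0.09 (Egln1 to Egln2, 0.571) and 0.03 (Hif1a to Epas1, 0.868), each with adjusted values of 0.276 or more. The smallest p the design allows is 0.00216.

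**Figure D3:**
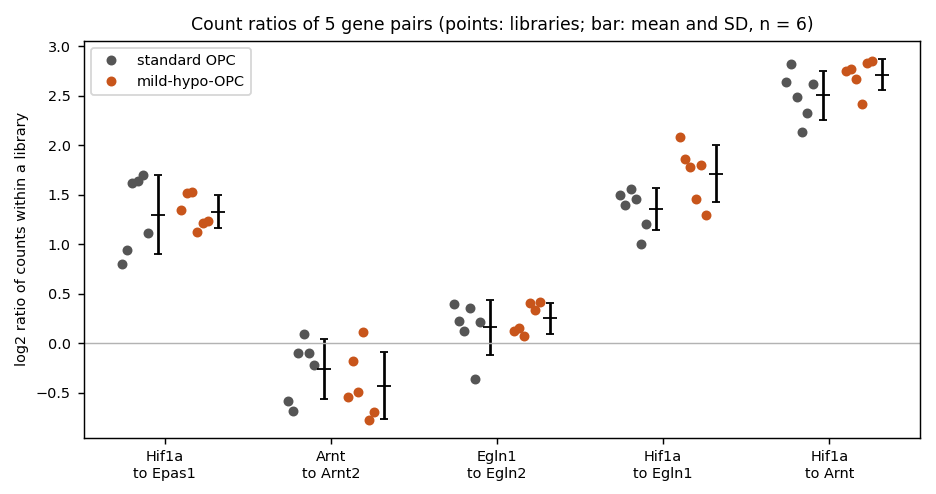
Log2 ratio of the counts of 2 genes within each library for the 5 pairs compared, 6 mild-hypo-OPC and 6 standard OPC libraries, with bars at the mean ± SD. Hif1a to Egln1 shows the largest difference of the 5, 1.71 ± 0.29 against 1.35 ± 0.21 (SD, n = 6), with overlap.

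Some partners of the Vhl ligase passed the test where Vhl itself did not, and the difference between them and Vhl was not tested. Of 6 partner genes, all tested, 4 fell in mild-hypo-OPCs and 0 rose (17.0% and 7.00% of all genes), with a median log2 fold change of -0.52. This list and those below were chosen with earlier results of these data known. Their shares of calls are therefore a description and no independent support. Nedd8, the modifier that activates cullin ligases, had 63.57, 76.03 and 86.25 CPM (lowest, median, highest) in mild-hypo-OPCs and 97.58, 159.9 and 200.3 CPM in standard OPCs. All 6 libraries lay below the standard OPC range, and the log2 fold change was -0.98 (standard error 0.15, adjusted p = 0.00019 from edgeR). The elongins, which bridge Vhl to the cullin, fell as well. Elob was at 97.67, 108.9 and 136.5 CPM against 132.8, 186 and 281.1 CPM, with 5 of 6 mild-hypo-OPC libraries below the standard OPC range (-0.79, standard error 0.15, adjusted p = 0.000999 from edgeR). Eloc was at 25.85, 28.06 and 31.22 CPM against 34.42, 45.98 and 64.99 CPM, without overlap (-0.68, standard error 0.13, adjusted p = 0.000927 from edgeR). These 3 proteins also serve other ligases. Ube2m was called lower too (-0.35, adjusted p = 0.0101 from edgeR). Rbx1 did not pass (-0.33, adjusted p = 0.0732 from edgeR), and Cul2 went the other way without passing (0.18, adjusted p = 0.177 from edgeR). With library size only, 2 of the 6 were called lower (4.53% of all genes) and 1 higher (61.7%). In replicates 1 to 3 only, 1 was called lower (4.01% of all genes), in replicates 4 to 6 only 4 (15.7%), after thinning 4 (11.1%) and with the log2 total as a covariate 0 (0.481%). With this covariate the median log2 fold change of the 6 was 0.02, and 3 of the values were negative.

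Among 15 cofactors and stability regulators of HIF, 14 were tested, 6 fell and 0 rose (17.0% and 7.00% of all genes), with a median log2 fold change of -0.07. The 3 with the largest change were Rack1 (-0.57, standard error 0.12, adjusted p = 0.00178 from edgeR), a scaffold that can promote oxygen-independent loss of HIF-1 alpha, Crebbp (-0.56, standard error 0.12, adjusted p = 0.00312 from edgeR), which encodes the coactivator CBP, and Siah1 (-0.52, standard error 0.13, adjusted p = 0.00722 from edgeR), a ligase for prolyl hydroxylases. With library size only, 7 of the 14 were called higher and 0 lower, against 61.7% and 4.53% of all genes. In replicates 1 to 3 only, 1 was called lower (4.01% of all genes), and in replicates 4 to 6 only, 5 (15.7%). After thinning 3 were called lower (11.1%), and with the log2 total as a covariate 0 (0.481%). Of the other bHLH-PAS family genes, which are relatives of the HIF subunits, 6 were tested and 0 were called (edgeR). Of the other oxygen-dependent dioxygenases, 10 were tested, 1 rose and 0 fell, near the 7.00% of all genes called higher. That gene, Ado, encodes a thiol dioxygenase that senses oxygen apart from HIF (0.26, standard error 0.09, adjusted p = 0.034 from edgeR). Ado no longer passed when any of standard OPC replicates 3 to 6 was left out (0.23 to 0.25, adjusted p = 0.0633 to 0.0774 from edgeR), in replicates 1 to 3 only (0.14, adjusted p = 0.545 from edgeR) and with the log2 total as a covariate (0.04, adjusted p = 0.997 from edgeR).

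Of 24 core HIF target genes, 14 passed the filter, 2 rose and 2 fell (7.00% and 17.0% of all genes), with a median log2 fold change of 0.07. P4ha1, a collagen prolyl hydroxylase, had 45.88 to 48.1 CPM in mild-hypo-OPCs, above all of the 27.35 to 39.74 CPM in standard OPCs (0.47, standard error 0.09, adjusted p = 0.00129 from edgeR). Ero1a, an oxidase of the endoplasmic reticulum, rose by 0.43 (standard error 0.14, adjusted p = 0.0283 from edgeR). It no longer passed when mild-hypo-OPC replicate 1 was left out, or any of standard OPC replicates 3, 4 and 6 (0.36 to 0.40, adjusted p = 0.0523 to 0.0652 from edgeR). It was also lost in replicates 1 to 3 only (adjusted p = 0.247 from edgeR), in replicates 4 to 6 only (0.051) and after thinning (0.193), and the value turned with the log2 total as a covariate (-0.13). The mitochondrial genes Higd1a (-0.81, standard error 0.13, adjusted p = 0.000283 from edgeR) and Bnip3 (-0.69, standard error 0.12, adjusted p = 0.000554 from edgeR) fell. Slc2a1, the glucose transporter GLUT1, ranged from 47.67 to 62.46 CPM in mild-hypo-OPCs and from 29.18 to 55.6 CPM in standard OPCs (0.33, standard error 0.13, adjusted p = 0.0671 from edgeR). Slc2a1 did pass the threshold by DESeq2 (0.35, adjusted p = 0.0487). By edgeR it passed under upper-quartile scaling (0.40, adjusted p = 0.0272), under library size only (0.76, adjusted p = 0.000167), with no filter (0.36, adjusted p = 0.0403) and when standard OPC replicate 1 was left out (0.45, adjusted p = 0.0103). Vegfa, the angiogenic growth factor, ranged from 12.11 to 16.19 CPM and from 9.94 to 19.12 CPM (-0.19, standard error 0.16, adjusted p = 0.44 from edgeR). With library size only, 10 of the 14 were called higher and 1 lower, against 61.7% and 4.53% of all genes. In replicates 1 to 3 only, 0 were called higher (edgeR, 0.620% of all genes) and 2 lower (4.01%). With the log2 total as a covariate 0 were called in either direction (edgeR), and Higd1a was at -0.01. In that fit 0 of all genes were called higher and 0.481% lower. With no filter, 4 of 23 were called higher and 2 lower, against 734 and 1517 of all 17391 genes in that fit. Of the targets below the filter, Ak4, a mitochondrial adenylate kinase, was named here after its values were seen. It had 12 to 23 counts per library (2.37 to 3.33 CPM) in mild-hypo-OPCs against 0 to 3 counts (0 to 1.14 CPM) in standard OPCs, without overlap. How many genes below the filter lay apart in this way was not counted. The other targets below the filter did not move alike. In mild-hypo-OPCs against standard OPCs, mean CPM was 5.16 against 3.445 for Adm and 3.591 against 3.413 for Pdk1. It was 4.895 against 4.917 for Ndrg1 and 5.46 against 8.054 for Bhlhe40.

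**Figure D4:**
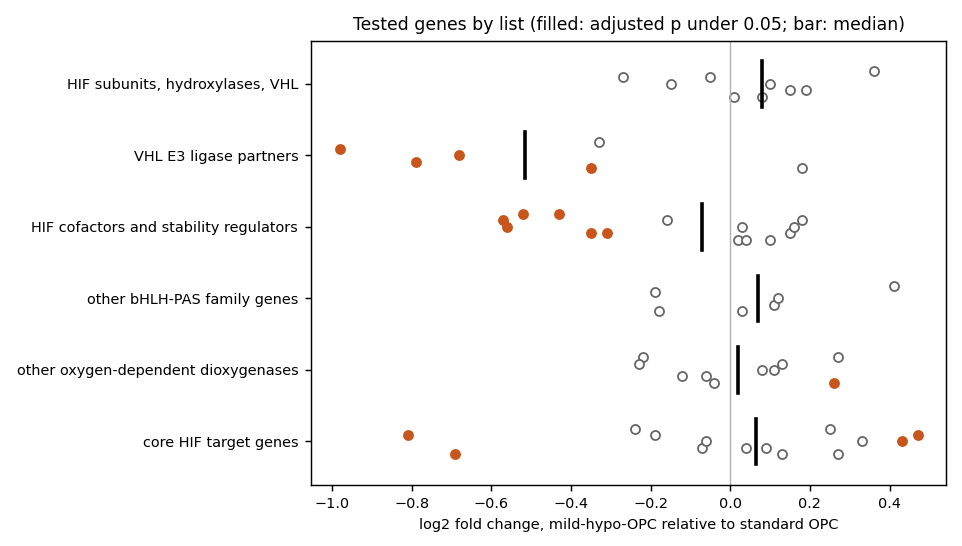
Log2 fold change (mild-hypo-OPC relative to standard OPC, edgeR with TMM factors) of each tested gene in the 10-gene set and in the 5 lists of related genes, 1 point per gene, filled where the adjusted p was under 0.05, with a bar at the median of each list. The members lie between -0.27 and 0.36, while the Vhl ligase partners reach -0.98.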

How the data were processed

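RNA of 12 OPC libraries (6 per group, taken from the deposited labels) was sequenced in bulk. According to the submitters' processing notes, reads were handled with Trimmomatic 0.36, FastQC 0.11.9, STAR 2.7.9a and RSEM 1.3.3, with mRatBN7.2 as genome. The table deposited by the authors holds unnormalized counts, all whole numbers, for each Ensembl gene. How the RSEM estimates were made whole is not given in the sources used here. It has 0 unused columns. A total of 13171 genes have no count. Every pair of libraries within a group differed beyond sampling noise (chi-square per degree of freedom 3.22 to 19.7), and each was counted as 1 sample.

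The 8938 genes above 10 CPM in 1 or more libraries were tested for the condition by the edgeR 4.0.16 quasi-likelihood test (R 4.3.3) with TMM scaling. P-values were adjusted by Benjamini-Hochberg over these genes, and calls were made at 0.05. The standard error is the one implied by the F statistic. Pair ratios used log2 of counts plus 0.5. Intervals (95%) and the floor of 3 counts cover the spread between libraries and counting error only. Alternatives were limma-voom (limma 3.58.1), DESeq2 1.42.0, other scalings and filters, thinning, the log2 total as a covariate, a replicate block, replicates 1 to 3 or 4 to 6 only, and each library left out. The interaction of condition with these replicate numbers was chosen after seeing the data. The scripts were tested on simulated data.

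The members and gene lists were chosen with earlier results of these data known. Named were all members, up to 3 called genes per list and direction with the largest change, and Vegfa and Slc2a1. Promoters came from RefSeq (GRCr8), another build than that of the counts, and were matched by symbol. A search of the proteins was planned and not run. Gene lengths were not used, so levels of different genes were not compared.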

Additional observations from a re-analysis of the deposited data

Results flagged for a closer look

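In standard OPC replicate 5 the log2 ratio of Egln1 to Egln2 was -0.363, apart from 0.128 to 0.4 in the other 5 standard OPC libraries (its gap was 0.643 of the group's range, past Dixon's critical value). Egln2 was at 61.98 CPM in this library, its highest level of the 12, and Egln1 was at 48.14 CPM, within the range of its group. Of 28 groups of values checked in this way, this was the 1 that stood apart, and chance gives about 1 in 20. Without this library the difference of the ratio between the groups was -0.01 in place of 0.09.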

How the results depend on the processing

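With 10 to 19 counts in standard OPCs, Egln3 had the widest interval of the members. Called higher were 1 member with DESeq2, 1 with upper-quartile scaling, 8 with library size only and 1 in replicates 4 to 6, and leaving out 1 library gave 0 to 1 member called lower. Genes called higher numbered 1136 with upper-quartile scaling, 5515 with library size only, 53 in replicates 1 to 3 and 0 with the log2 total as a covariate (edgeR, 705 genes at an unadjusted p under 0.05). Genes called lower numbered 405, 343 and 43 with library size only, in replicates 1 to 3 and with the covariate. The higher share of calls was 29.2% with TMM factors, 47.5% with upper-quartile scaling, 93.2% with library size only and 13.4% in replicates 1 to 3. Directions turned for Vhl with upper-quartile scaling (0.02) and with library size only for Egln1 (0.29), Egln2 (0.17), Vhl (0.39) and Vegfa (0.24). They turned in replicates 1 to 3 for Epas1 (-0.23), and in replicates 4 to 6 for Arnt (-0.06) and Egln3 (-0.18). With the covariate the values that turned were Hif1a -0.04, Epas1 -0.36, Arnt2 -0.31, Egln1 0.27, Egln2 0.08, Vhl 0.15, Rack1 0.15 and Ero1a -0.13. Thinning turned the ratios of Arnt to Arnt2 (0.07) and Egln1 to Egln2 (-0.02). Leaving out 1 library at a time gave -0.04 to 0.20 for Epas1, -0.03 to 0.08 for Arnt, -0.09 to 0.03 for Vhl, -0.07 to 0.11 for Hif1a to Epas1 and -0.01 to 0.14 for Egln1 to Egln2. The cause of these shifts was not tested. Same-numbered libraries correlated at -0.29 to 0.31. For replicate 1 the highest correlation was with the library of the same number, and for replicates 2 to 6 it was not. Over so few libraries these values cannot decide whether the numbers mark pairs. With a replicate block 572 genes were called higher and 1471 lower, 0 members were called, and Vhl ligase partners called lower numbered 5.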
